A study of Mus musculus with 2 samples.

Results

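The interferon regulatory factors (IRFs) are transcription factors that share a DNA-binding domain and control the response to interferons and the development of blood cells. The genes described here are Irf1, Irf2, Irf3, Irf4, Irf5, Irf7, Irf8 and Irf9, taken by their symbols. All 14 probe sets annotated to a single one of these symbols were read, of 34945 probe sets with 1 gene symbol, and the 8 genes are part of 18193 genes in all. Each was measured on 1 array of osteoclasts and 1 array of macrophages, both grown from bone marrow of C57/Black6 mice aged 8 weeks. Adherent marrow cells were taken after 3 days in M-CSF (macrophage colony-stimulating factor) as progenitors of both cell types. Osteoclasts were then grown for 6 days with M-CSF and RANKL, which directs progenitors into osteoclasts, and macrophages for 6 days with M-CSF alone, so both groups received M-CSF throughout. The labels do not say whether both cultures came from the same animals, or whether animals were pooled. The sex-linked signals given below are those of different animals.

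IRF proteins bind GAAA-containing elements in the promoters of interferon-stimulated genes. Irf3 and Irf7 are activated by sensors of microbial nucleic acid and switch on the interferon genes. Irf9 joins STAT proteins below the interferon receptors, Irf1 and Irf2 activate and restrain an overlapping set of genes, and Irf5 drives inflammatory cytokine genes below Toll-like receptors. Irf8 and its close relative Irf4 bind DNA poorly alone and act with partners such as PU.1 (encoded by Spi1). Irf8 is needed for the monocyte and dendritic cell lineages, and in mouse cells it is known to restrain osteoclast formation by binding NFATc1.

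The values are deposited linear intensities, called signals here. The typical signal was dimmer in the osteoclast array: over 23708 probe sets measured in both arrays the median log2 difference, osteoclast over macrophage, was -0.43. Differences below are log2 values relative to this shift unless they are called as deposited. A signal counted as measured above the 40th percentile of its array, 14.4 in osteoclasts and 17.0 in macrophages. A more cautious background level was taken from 78 probe sets of olfactory and vomeronasal receptors, at their 95th percentile, 25.8 in osteoclasts and 28.3 in macrophages. With 1 array per group there was no replicate, so no difference could be tested. Differences are set against how far probe sets for 1 gene differ among themselves, an SD of 0.49 on the log2 scale over 5435 genes; this probe-set SD leaves out cultures and animals. Genes at least 2-fold apart (1 on the log2 scale) are counted by size only.

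The 9 osteoclast markers read, among them Acp5, Ctsk and Dcstamp, were all at least 2-fold higher in the osteoclast array, with summed signals of 36200 in osteoclasts and 967 in macrophages. All 7 macrophage markers were measured in both arrays, with summed signals of 14865 in osteoclasts and 29024 in macrophages, of which Csf1r and Cd68 made up the larger part. Of these, 3 were at least 2-fold lower in osteoclasts (Fcgr1 at -2.91, Adgre1 at -1.99 and Mertk at -1.87), and none was 2-fold higher. Over all genes measured, 6.99% were at least 2-fold lower and 7.11% at least 2-fold higher. The median of the 7 macrophage markers was -0.91, on the same side as Irf8 and Irf5. The part of this in the IRF values was not tested. Xist, the RNA of female cells, gave a signal of 22.1 in osteoclasts and 1872 in macrophages, and the Y-linked gene Eif2s3y gave 321 in osteoclasts and 0.571 in macrophages. Uty (72.7 in osteoclasts, 14.7 in macrophages) and Kdm5d (63.5 in osteoclasts, 6.14 in macrophages), also Y-linked, went the same way as Eif2s3y. These are signals of male cells in the osteoclast array and female cells in the macrophage array. The 2 arrays therefore do not hold cells of the same animals. Animal and sex differ together with treatment, and the part of each in any difference below cannot be told apart. The ratio of 3' to 5' Gapdh control signals was 0.862 in osteoclasts and 0.748 in macrophages. In bulk RNA, fewer cells of a type and less RNA per cell cannot be told apart.

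Of the 8 IRF genes, Irf8 and Irf5 were at least 2-fold lower in osteoclasts, and none was 2-fold higher. Irf2 lay just short of 2-fold lower, Irf9 and Irf1 were lower by less, Irf7 and Irf3 lay near the shift, and Irf4 was at the level of background in both arrays. Over all 13647 genes measured in at least 1 array, 6.99% were at least 2-fold lower and 7.11% at least 2-fold higher. The median of the 8 IRF genes was -0.47, against 0.00 over all genes measured. Without Irf8 the median was -0.40, and without both Irf8 and Irf5 it was -0.19. As deposited, before the shift of -0.43 was taken out, 7 of the 8 genes were lower in osteoclasts. The median probe set measured in both arrays was lower there too, so this count is not particular to the IRF genes. On that scale 3 of the 8 were 2-fold lower. Of all genes, 17.5% were 2-fold lower, 3% 2-fold higher and 20.5% 2-fold apart in either direction.

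**Figure D1:**
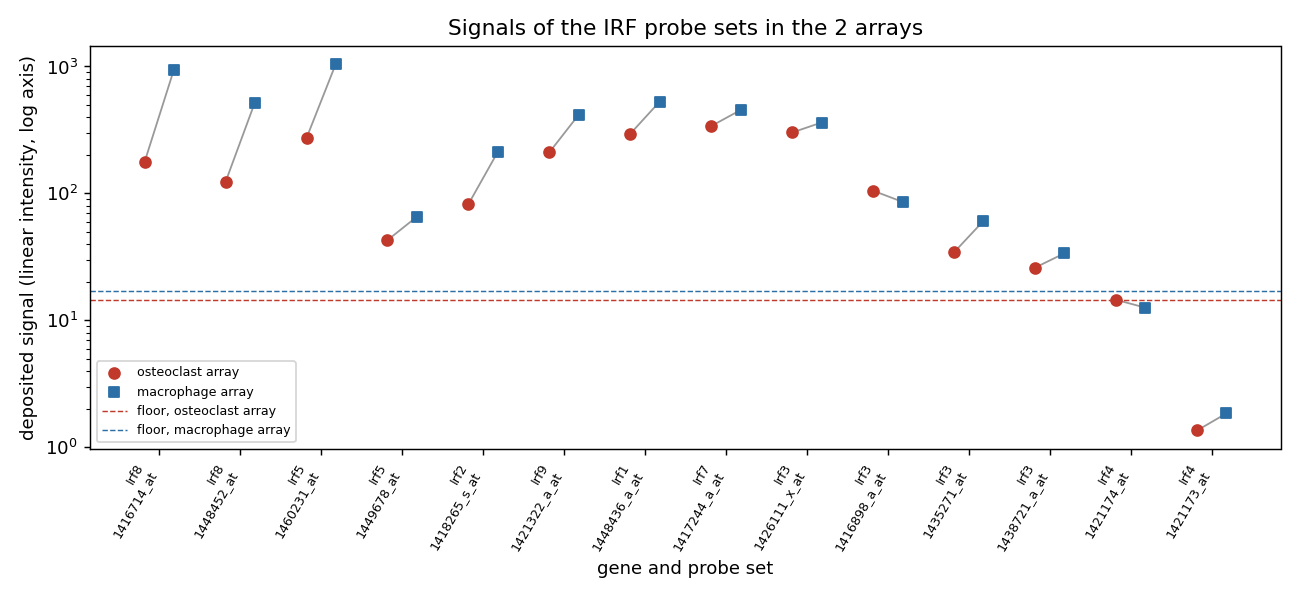
Deposited signal of each of the 14 IRF probe sets on a log axis, with the osteoclast array as a red circle and the macrophage array as a blue square; dashed lines are the floors of 14.4 and 17.0. The widest gaps are those of both Irf8 probe sets and of the brighter Irf5 probe set, and both Irf4 probe sets lie at or under the floors.

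Irf8 had the largest difference of the family. Probe set 1416714_at gave 177 in osteoclasts and 934 in macrophages, a difference of -1.97, or 3.92-fold lower. Probe set 1448452_at gave 123 in osteoclasts and 516 in macrophages, a difference of -1.63. Both probe sets were thus low in the osteoclast array, differed from each other by 0.34, less than the probe-set SD, and stayed well above background, at 12.3 (1416714_at) and 8.55 (1448452_at) times the floor in osteoclasts. Of all genes measured, 0.989% (135 genes) had a lower value than Irf8. As deposited the brighter probe set differed by -2.40.

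Irf5, which acts below Toll-like receptors through MyD88 and induces inflammatory cytokine genes, followed, but its probe sets disagreed. Probe set 1460231_at gave 273 in osteoclasts and 1041 in macrophages, a difference of -1.50, or 2.83-fold lower. The dimmer probe set 1449678_at gave 42.9 in osteoclasts and 65.3 in macrophages, a difference of -0.17. The 1.32 between them is larger than the probe-set SD, so the size of the Irf5 difference rests on the probe set chosen, and the median over both, -0.84, is under 2-fold. The brighter probe set stood at 61.1 times the floor in macrophages, and the dimmer at 3.83 times. By the brighter probe set, 2.52% of all genes measured lay lower than Irf5.

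Irf2, a repressor that competes with Irf1 for its sites, was read from its only probe set, 1418265_s_at, with 82.4 in osteoclasts and 211 in macrophages. The difference was -0.92, a 1.90-fold lower signal, and 8.19% of all genes lay lower. It was the nearest gene outside the 2-fold threshold, and Irf5 was the nearest inside it. As deposited, Irf2 differed by -1.36 and passed 2-fold. The s in a probe set name marks probes that can match transcripts of more than one gene, so this signal may not be that of Irf2 alone.

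Irf9, the DNA-binding subunit of the complex with STAT proteins that carries the type I interferon signal, gave 211 in osteoclasts and 416 in macrophages (1421322_a_at), a difference of -0.55. Irf1, an activator induced by interferon gamma, gave 296 in osteoclasts and 528 in macrophages (1448436_a_at), a difference of -0.40. Both were lower in osteoclasts by about the probe-set SD, and each has 1 probe set, so neither is separated from the shift by a second reading. Of all genes, 18.3% lay below Irf9 and 24.4% below Irf1.

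Irf7, itself an interferon-stimulated gene, stayed at the shift. Its probe set 1417244_a_at gave 340 in osteoclasts and 453 in macrophages, a difference of 0.018 (-0.41 as deposited). Irf3, which is made constitutively and activated by phosphorylation, was read from 1426111_x_at, with 302 in osteoclasts and 362 in macrophages and a difference of 0.17 (-0.26 as deposited). The other Irf3 probe sets went both ways. Probe set 1416898_a_at gave 105 in osteoclasts and 85.8 in macrophages (0.72). In 1438721_a_at the signals were 26.1 in osteoclasts and 33.8 in macrophages (0.061), and in 1435271_at they were 34.5 in osteoclasts and 60.8 in macrophages (-0.38). This range of 1.10 is wider than any difference from the shift among them, so no direction can be given for Irf3. An x in a probe set name marks probes that resemble other sequences, and the brightest Irf3 probe set is of that kind.

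Irf4, known from lymphocytes, dendritic cells and alternatively activated macrophages, was not separated from background. Probe set 1421174_at gave 14.5 in osteoclasts, 1.01 times the floor there, and 12.6 in macrophages, 0.739 times the floor there, and 1421173_at gave 1.36 in osteoclasts and 1.85 in macrophages. Both lie under the level of the olfactory and vomeronasal receptors in both arrays. The value of 0.20 obtained from the first therefore shows neither a difference in expression nor its absence. Without Irf4 the median of the other 7 genes was -0.55. The order of the measured differences, from the lowest, was Irf8, Irf5, Irf2, Irf9, Irf1, Irf7, Irf3 and Irf4. Neighbours in that order were between 0.026 and 0.57 apart, less than the 0.70 that the probe-set SD gives for a difference between 2 probe sets, so their order is not settled. With the median over probe sets, Irf5 at -0.84 lay above Irf2 at -0.92. Irf8 and Irf1 were 1.57 apart, and Irf8 and Irf3 2.14 apart.

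**Figure D2:**
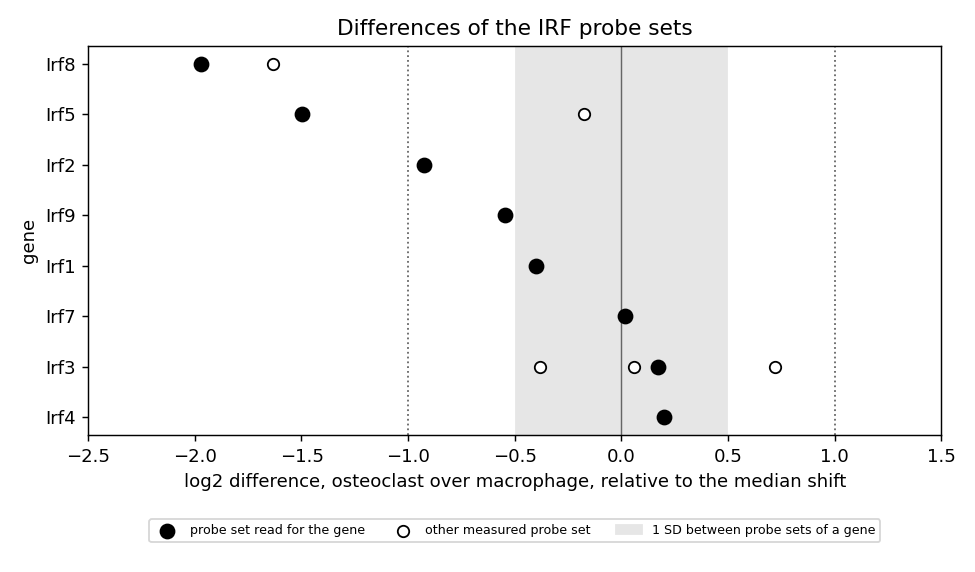
Log2 difference, osteoclast over macrophage, relative to the median shift, for the 13 measured IRF probe sets; filled circles stand for the gene, open circles are its other probe sets, the grey band is 1 SD between probe sets of a gene and dotted lines mark 2-fold. Irf8 is the only gene with every probe set past the 2-fold line, while the Irf5 and Irf3 probe sets spread widely.

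**Figure D3:**
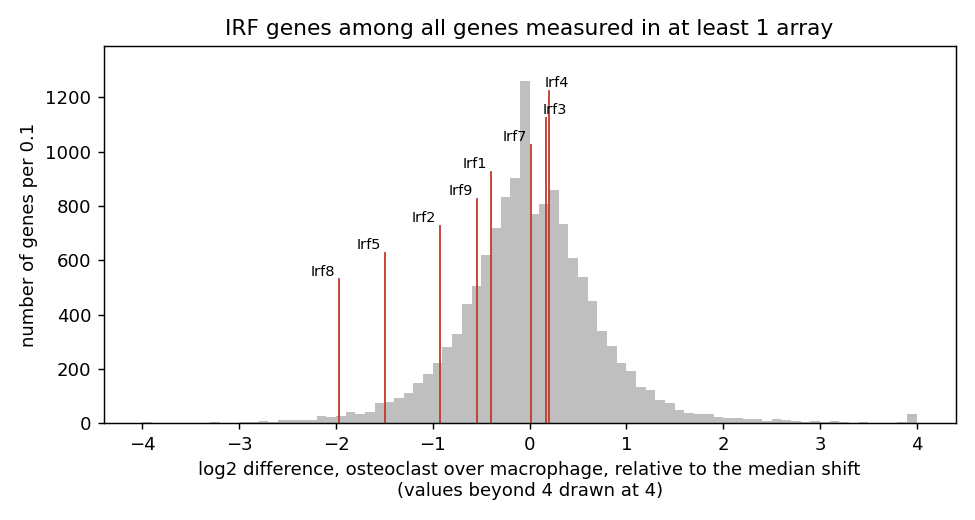
Histogram of the log2 difference, osteoclast over macrophage, relative to the median shift, over 13647 genes, with the 8 IRF genes as red lines whose heights serve the labels only. Irf8 and Irf5 stand in the lower tail and the other 6 within 2-fold; some genes measured in only 1 array are drawn at 0, where their bound was limited.

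The promoter windows of 4 members are shown because the genes differ in how far they moved and in the interferon-response letters they hold. Each runs from 250 bases before to 50 bases after the RefSeq gene start, 5' to 3', in build GRCm38.p6. Searched on both strands were the GAS element bound by STAT proteins (TTCNNNGAA, found in 8.3% of 32851 windows of all genes), the interferon-stimulated response element, ISRE (GAAANNGAA, in 8.56%), and a composite ETS-IRF element (GGAANNGAA, in 8.24%). Matches are in capitals.
Irf8, chr8:120736108-120736407, plus strand: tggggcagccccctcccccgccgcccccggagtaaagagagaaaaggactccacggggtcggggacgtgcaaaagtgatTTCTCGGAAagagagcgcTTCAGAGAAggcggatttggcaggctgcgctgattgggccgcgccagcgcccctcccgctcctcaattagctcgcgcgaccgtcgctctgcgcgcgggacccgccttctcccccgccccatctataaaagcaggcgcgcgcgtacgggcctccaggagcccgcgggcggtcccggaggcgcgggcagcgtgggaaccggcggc
Irf5, chr6:29526375-29526674, plus strand: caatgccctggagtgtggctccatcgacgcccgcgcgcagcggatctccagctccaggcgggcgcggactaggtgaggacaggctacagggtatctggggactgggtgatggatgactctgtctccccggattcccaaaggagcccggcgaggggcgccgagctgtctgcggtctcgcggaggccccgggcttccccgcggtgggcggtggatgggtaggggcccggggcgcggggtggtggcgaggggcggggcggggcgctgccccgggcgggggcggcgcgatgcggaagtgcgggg
Irf2, chr8:46739495-46739794, plus strand: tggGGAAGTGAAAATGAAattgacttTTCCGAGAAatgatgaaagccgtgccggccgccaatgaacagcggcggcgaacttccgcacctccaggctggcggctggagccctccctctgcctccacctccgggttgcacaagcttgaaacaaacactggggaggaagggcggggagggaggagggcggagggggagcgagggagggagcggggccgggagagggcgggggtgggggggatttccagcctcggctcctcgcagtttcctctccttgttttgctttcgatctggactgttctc
Irf1, chr11:53769764-53770063, plus strand: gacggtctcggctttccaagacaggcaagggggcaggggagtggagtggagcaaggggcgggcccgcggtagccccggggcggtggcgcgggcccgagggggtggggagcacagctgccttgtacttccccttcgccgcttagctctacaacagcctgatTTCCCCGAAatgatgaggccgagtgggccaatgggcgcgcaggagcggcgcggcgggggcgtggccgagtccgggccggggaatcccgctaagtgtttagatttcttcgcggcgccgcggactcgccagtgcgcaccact

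The Irf8 window held 2 GAS matches, TTCTCGGAA and TTCAGAGAA, which start 171 and 153 bases before the gene start. The Irf1 window held a GAS match, TTCCCCGAA, that starts 90 bases before it. Irf8 and Irf1 thus share this kind of match while their differences were -1.97 and -0.40. In the Irf2 window an ETS-IRF match, GGAAGTGAA, overlaps an ISRE match, GAAAATGAA, by 3 bases, and a GAS match, TTCCGAGAA, follows them. The Irf5 window held none of the 3 patterns, and neither did the windows of Irf3, Irf4, Irf7 and Irf9. Irf1, Irf8 and Irf9 each have a second window in the RefSeq table, with no match. A match to these letters is a description of the window and not a site of binding.

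Genes with roles around the IRFs were read from 8 lists, on which 109 of 119 genes with a probe set were measured. Of these, 18 (16.5%) were at least 2-fold lower and 6 (5.50%) at least 2-fold higher in osteoclasts, against 6.99% and 7.11% of all genes, and their median was -0.21. The interferon genes themselves were at background. Ifnb1 gave 19.6 in osteoclasts and 22.1 in macrophages, Ifna1 gave 4.14 in osteoclasts and 18.1 in macrophages, and the other 5 with a probe set, Ifng among them, were under the floor in both arrays.

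The interferon receptors and their JAK and STAT partners were measured throughout. Of the 9 genes, 7 lay below the shift, against 49.7% of all genes measured. None of the 9 was 2-fold lower, and the median was -0.60. With the median over each gene's probe sets the list median was -0.15, and 1 gene was 2-fold lower. The brightest were Il10rb, a receptor chain shared with other cytokines, with 1762 in osteoclasts and 3043 in macrophages (-0.36), and the kinase gene Jak1, with 850 in osteoclasts and 1071 in macrophages (0.099, with another probe set at -1.07). Stat2, the partner of Irf9, gave 76.1 in osteoclasts and 156 in macrophages, a difference of -0.60, close to that of Irf9. Its other probe set gave -1.36. The chains of the interferon gamma receptor, named after their values were seen, were apart, with Ifngr1 at -0.97 and Ifngr2 at 0.25. As deposited, 5 of the 9 genes were 2-fold lower, against 17.5% of all genes.

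Among sensors and kinases upstream of the IRFs, 6 of 19 measured genes were at least 2-fold lower and none was 2-fold higher. The shares over all genes were 6.99% and 7.11%, and the list median was -0.43. The endosomal receptors of single-stranded RNA, which signal through MyD88 to Irf5 and Irf7, were among the lower genes. Tlr7 gave 107 in osteoclasts and 384 in macrophages (-1.40, with its probe sets up to 0.25), and Tlr8 gave 80.9 in osteoclasts and 268 in macrophages (-1.30). Unc93b1, which carries these receptors to the endosome, gave 420 in osteoclasts and 1499 in macrophages (-1.40). The other 3 lower genes, named after their values were seen, were the DNA-sensing adaptor gene Sting1 (-1.20), the endotoxin receptor gene Tlr4 (-1.09) and the kinase gene Ikbke, which sat at the threshold with 88.9 in osteoclasts and 240 in macrophages. Tbk1, which encodes the main kinase of Irf3, and Mavs, the adaptor of the RNA sensors, lay near the shift (-0.14 and 0.074), and Slc15a4, needed for Irf5 activation in the endolysosome, lay at 0.86. These genes too were named after their values were seen.

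Binding partners and regulators of IRF proteins went both ways, with 2 of 17 at least 2-fold lower, 2 at least 2-fold higher and a median of -0.015. Spi1, whose product PU.1 pairs with Irf8 and Irf4, gave 1917 in osteoclasts and 1557 in macrophages, a difference of 0.73, on the other side of the shift from Irf8. Ikzf1, the Ikaros gene, gave 181 in osteoclasts and 658 in macrophages (-1.43, with another probe set at -0.85). Batf3, which cooperates with Irf8 in dendritic cells, gave 30.2 in osteoclasts and 92.7 in macrophages (-1.19), and was close to background in osteoclasts. The AP-1 gene Junb gave 538 in osteoclasts and 290 in macrophages (1.33). Kdm6b, a histone demethylase that acts upstream of Irf4 in macrophages, gave 125 in osteoclasts and 63.7 in macrophages (1.40, with other probe sets up to 1.68), although Irf4 itself was at background. As deposited, 5 of the 17 were 2-fold lower and 0 were 2-fold higher, against 17.5% and 3% of all genes.

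Type I interferon-stimulated genes, the targets of the complex that holds Irf9, ran from -1.26 to 1.40. Of 24 measured, 2 were at least 2-fold lower, 1 was at least 2-fold higher, and the median was -0.17 (-0.60 as deposited). The antiviral membrane protein gene Bst2 gave 517 in osteoclasts and 1667 in macrophages (-1.26), and Ifit2, an inhibitor of viral translation, gave 81.2 in osteoclasts and 239 in macrophages (-1.13). The chemokine gene Cxcl10 gave 202 in osteoclasts and 103 in macrophages (1.40). As deposited the counts were 6 lower and 0 higher, against 17.5% and 3% of all genes. Genes induced by interferon gamma or Irf1 had a median of -0.11 over 20 measured, with 1 at least 2-fold lower and 2 at least 2-fold higher. Gbp7, a guanylate-binding protein gene, gave 322 in osteoclasts and 94.3 in macrophages (2.20, with another probe set at 1.52), and Gbp6 gave 62.4 in osteoclasts and 42.0 in macrophages (1.00, at the threshold, with its other probe set at 0.39). Iigp1, an immunity-related GTPase gene, gave 70.7 in osteoclasts and 194 in macrophages (-1.02).

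Myeloid genes tied to Irf8 in earlier work had a median of -0.61 over 12 measured. Of these, 4 were at least 2-fold lower and 1 at least 2-fold higher, against 6.99% and 7.11% of all genes. The list takes no account of whether Irf8 raises or lowers a gene, so its median is no reading of Irf8 activity. Bcl6, a repressor, gave 147 in osteoclasts and 828 in macrophages (-2.07, with another probe set at -1.36). Cd180, a Toll-like receptor relative, gave 104 in osteoclasts and 394 in macrophages (-1.49), and Cybb, the catalytic subunit of the phagocyte oxidase, gave 1388 in osteoclasts and 3966 in macrophages (-1.08, with 3 probe sets from -1.27 to -1.07). The remaining lower gene, named after its value was seen, was the cytokine gene Il18 (-1.05). Klf4, a transcription factor that Irf8 induces in monocyte progenitors, gave 289 in osteoclasts and 192 in macrophages (1.03), but its other probe set gave -0.20. Genes tied to Irf4 or Irf5 in macrophages had a median of -0.95 over 6 measured. At least 2-fold lower were 3 and none was higher, against the same shares of all genes. With the more cautious background level as the floor, where 6.34% of all genes were lower, 2 were lower. The mannose receptor gene Mrc1 gave 603 in osteoclasts and 2504 in macrophages (-1.62), and Tnf gave 38.9 in osteoclasts and 113 in macrophages (-1.10). Arg1, the arginase gene, gave 57.6 in macrophages and lay under the floor in osteoclasts, which makes it at least 1.65-fold lower at the more cautious background level. The cytokine genes Il6 and Il23a, the only members of the list not measured, were under the floor in both arrays.

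**Figure D4:**
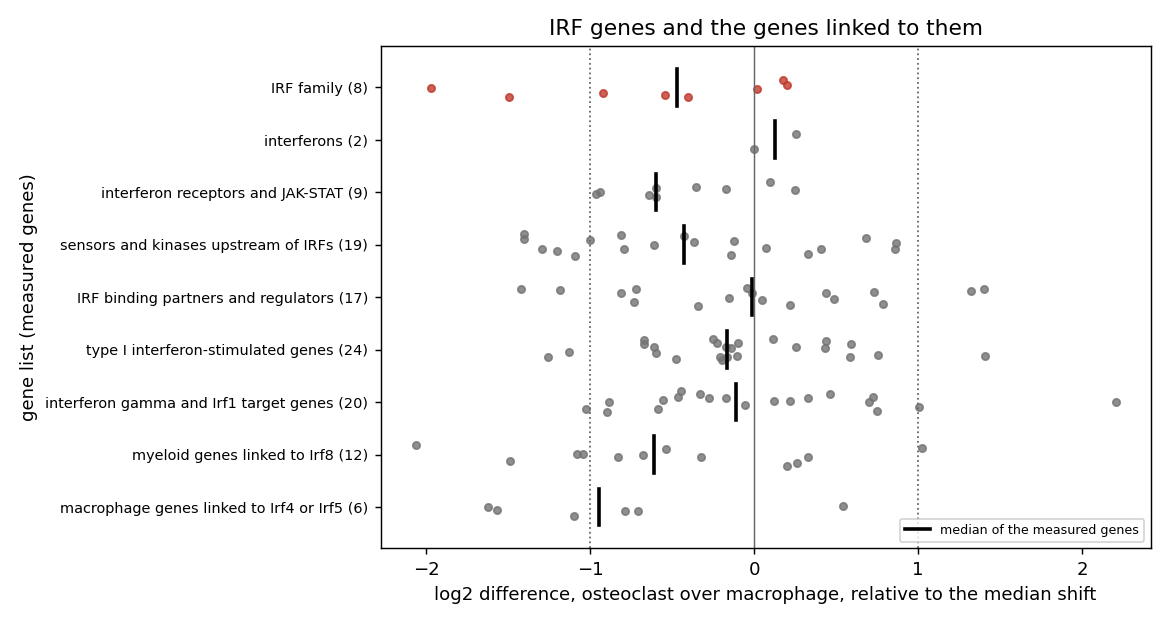
Log2 difference, osteoclast over macrophage, relative to the median shift, of each measured gene of the IRF family (red) and of the 8 linked lists (grey), with list medians as black bars, dotted lines at 2-fold and the number of measured genes in brackets; vertical scatter within a list has no meaning. The median of the list tied to Irf4 or Irf5, -0.95, lies lowest. Those of the list tied to Irf8, -0.61, and of interferon receptors and JAK-STAT, -0.60, follow at nearly the same level. That of type I interferon-stimulated genes, -0.17, lies near the shift.

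By Euclidean distance of the 2 log2 signals, the gene with the pattern most like Irf8 was Tbxas1, the thromboxane synthase gene, with 178 in osteoclasts and 918 in macrophages (distance 0.026). Next came Cd300ld (0.049), Ntpcr (0.21), Hfe (0.21) and Dse (0.21), with differences from -2.03 to -1.70. Likeness here rests on 2 arrays, and signals of different probe sets are not on 1 scale.

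Irf8 is also used by dendritic cells and Irf4 by lymphocytes, so markers of other cells were read beside them. Of 8 dendritic cell markers with a probe set, 5 were measured in osteoclasts and 6 in macrophages. Their summed signals were 224 in osteoclasts and 307 in macrophages. Most of this came from Itgax, with 112 in osteoclasts and 104 in macrophages, and Batf3, with 30.2 in osteoclasts and 92.7 in macrophages. Itgax was above background in both arrays, and Batf3 was close to background in osteoclasts. Flt3 gave 16.1 in osteoclasts and 26.1 in macrophages, at background. Of 7 plasmacytoid dendritic cell markers, 4 were measured in osteoclasts and 5 in macrophages, with summed signals of 860 in osteoclasts and 2543 in macrophages, mostly from Bst2 and Tcf4, while the defining marker Siglech was under the floor in both arrays. The B lymphocyte markers, 4 of 7 measured in each array, summed to 1884 in osteoclasts and 633 in macrophages. Sdc1 made up nearly all of this in osteoclasts, with 1785, and the larger part in macrophages, with 455. Cd79b gave 16.4 in osteoclasts, at background, and 64.7 in macrophages (-1.55). Pax5 gave 38.3 in macrophages and lay under the floor in osteoclasts, and Ebf1 gave 44.3 in macrophages (-0.33, with other probe sets up to 1.62). Of the 5 genes measured in at least 1 array, 3 lay below the shift and 2 above, where 49.7% of all genes measured lay below. Cd79a and Ms4a1 were under the floor in both arrays. T and NK lymphocyte markers summed to 80.1 in osteoclasts and 122 in macrophages, with 2 of 7 measured in each array and Cd3d, Cd3e and Cd3g under the floor. Granulocyte markers were higher in the osteoclast array, 7 of 9 by at least 2-fold, against 7.11% of all genes. As deposited, 4 of the 9 were 2-fold higher, against 3% of all genes. Fcnb, with 57.0 in macrophages and a signal under the floor in osteoclasts, went the other way. The summed signals of granulocyte markers were 6063 in osteoclasts and 3284 in macrophages. Stromal and osteoblast markers summed to 6052 in osteoclasts and 11924 in macrophages, with 1 of 7 measured genes at least 2-fold higher and none 2-fold lower. The higher gene was Dcn, with 37.0 in osteoclasts and a signal under the floor in macrophages. At the more cautious background level it was at least 1.76-fold higher. Probe sets of Col1a1, Col1a2 and Sparc lay on both sides of the shift, from -0.84 to 1.23 for Sparc. Batf3, Itgax and Bst2 stand on linked lists as well as among these markers. The part of these cells in the IRF values was not tested.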

How the data were processed

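Per the series' design text, RNA of cultured cells was hybridised to Affymetrix arrays. Per the labels' protocols, 1 µg of total RNA was made into biotinylated cRNA. Deposited were linear intensities of 45101 probe sets in each of 2 arrays. The sources used here do not give how probes were condensed, background-corrected and scaled, and detection calls were not used. The medians were 22.8 in osteoclasts and 27.0 in macrophages.

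The 64 control probe sets were left out. Genes came from GEO's platform annotation, which can be old, and the brightest probe set by mean log2 of the deposited intensity stood for a gene. Signals under the floor were raised to it, and a bound that crossed the shift was set to 0. At the floor, 15.4% of receptor probe sets passed as measured in osteoclasts and 20.5% in macrophages. The members and lists were chosen with earlier results of these data known. Named were all members, up to 3 genes a list in each direction of at least 2-fold (otherwise the 2 brightest), Stat2, Spi1 and Batf3, and the 5 genes nearest to Irf8. Alternatives were the deposited scale, quantile normalization, other floors or none, the median over probe sets, and a pseudocount of 16. Python 3.11.15 and pandas 2.3.3 were used. The steps from signals to differences were tested on simulated data with large changes in bright genes only. Changes in dim genes and changes near 2-fold were not covered by that test. Promoter windows are from RefSeq.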

Additional observations from a re-analysis of the deposited data

How the results depend on the processing

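With 1 array per group, no replicate could be left out, and precision is limited by the number of arrays. No paired analysis was possible because each group has 1 array. Irf8 stayed at least 2-fold lower under all 8 settings, from -2.40 to -1.80. With the median over probe sets the count of lower IRF genes was 1, since Irf5 had -0.84. The median of the members ran from -0.91 to -0.42. On the deposited scale, 17.5% of all genes were 2-fold lower and 3% 2-fold higher. Lower counts there were 9 of 19 for sensors and kinases, 5 of 9 for receptors and JAK-STAT and 5 of 17 for binding partners. They were 6 of 24 for type I interferon-stimulated genes and 4 of 20 for interferon gamma and Irf1 targets. Of genes tied to Irf8, 6 of 12 were lower, and of genes tied to Irf4 or Irf5, 5 of 6. The higher counts were 0 for binding partners, 0 for type I genes, 1 for interferon gamma and Irf1 targets and 0 for genes tied to Irf8. With no floor, where 14.9% of all genes were lower and 14.5% higher, 2 interferons were lower and 3 higher, and 1 receptor gene was lower. In that setting 2 interferon gamma targets were lower and 1 higher, 0 genes tied to Irf8 were higher and 1 tied to Irf4 or Irf5 was higher. The median over probe sets (6.05% of all genes lower, 6.37% higher) gave 1 lower receptor gene, 1 higher interferon gamma target and 0 higher genes tied to Irf8. With a pseudocount of 16 (5.63% of all genes lower, 6.63% higher), 1 binding partner and 1 gene tied to Irf4 or Irf5 were lower, 0 interferon gamma targets were lower and 1 higher, and 0 genes tied to Irf8 were higher. Quantile normalization (7.75% of all genes lower, 6.28% higher) gave 0 lower and 1 higher interferon gamma target. A floor at the 30th percentile (8.56% lower, 8.76% higher) gave 1 higher. The cause of these changes was not tested.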

Other observations

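The ISRE letters GAAANNGAA, of the kind IRF proteins bind, were found in the promoter windows of 11 of 19 type I interferon-stimulated genes (57.9%), 10 of 17 interferon gamma and Irf1 target genes (58.8%) and 6 of 11 interferon genes (54.5%), against 9.76% of all 27025 genes with a window. Among the type I genes with a measured signal, the median log2 difference, osteoclast over macrophage, relative to the shift, was -0.21 for the 9 with the letters and -0.20 for the 8 without them.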
